A study of Mus musculus with 2 samples.

Results

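Alveolar type 2 (AT2) cells are the surfactant-making epithelial cells of the lung alveolus. Here they were 193 of the 18823 deposited cells, 141 from a control library and 52 from a Dnmt1iECKO library. A cell was counted as AT2 when it had at least 500 detected genes, at most 10% mitochondrial UMIs (unique molecular identifiers, each 1 counted RNA molecule), no UMI of the leukocyte gene Ptprc, more than 0.5% of its UMIs from Sftpc, and at least 2 of the 5 further markers Sftpb, Sftpa1, Lamp3, Slc34a2 and Abca3. The cells were thus selected on measured expression, and the levels of those 6 markers are given as a description. Each library pooled tumors from 3 mice, so there was 1 library per condition. No test between conditions was possible, and no p-value is given.

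Both libraries came from female mice aged 8 to 10 weeks bearing YUMMER1.7 tumors, which grow from an immunogenic mouse melanoma line. The labels give the Dnmt1iECKO genotype as Cdh5CreERT2;Dnmt1fl/fl;ZsGreenlsl/lsl, a model in which tamoxifen removes the DNA methyltransferase gene Dnmt1 from Cdh5-positive endothelial cells. The control mice are labelled C57BL/6 and are named in the study's methods as carrying Cdh5Cre and the ZsGreen reporter with intact Dnmt1. By design the deletion is confined to cells that use Cdh5, an endothelial gene, so AT2 cells were not its target. The labels place the tumors under the skin of the shoulder and name the cells as melanoma cells, whereas the methods describe lung tumors seeded through the tail vein. Alveolar epithelium was present in both libraries.

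AT2 cells make, store and recycle surfactant, a film of phospholipid and 4 surfactant proteins that keeps the alveoli open. Surfactant is packed into lamellar bodies, loaded with lipid by the transporter Abca3, and secreted. AT2 cells also act as stem cells of the alveolus: they divide, pass through a keratin 8-high transitional state and become flat alveolar type 1 (AT1) cells, and they carry MHC class II molecules. The transcription factor Nkx2-1 drives surfactant genes in these cells.

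Promoter sequences are shown for the surfactant protein genes Sftpa1 and Sftpb, which led the AT2 cells, and for Retnla, which had the most UMIs among the 10 lowest genes of the comparison between libraries. Each is the 250 bases before the RefSeq start (GRCm38.p6), 5′ to 3′ on the plus strand, for Sftpa1 chr14:41131538-41131787, for Sftpb chr6:72304360-72304609 and for Retnla chr16:48842359-48842608. Capitals mark the Nkx2-1-like hexamers CAAGTG and CTCAAG on either strand, and the matches do not overlap each other here.
Sftpa1: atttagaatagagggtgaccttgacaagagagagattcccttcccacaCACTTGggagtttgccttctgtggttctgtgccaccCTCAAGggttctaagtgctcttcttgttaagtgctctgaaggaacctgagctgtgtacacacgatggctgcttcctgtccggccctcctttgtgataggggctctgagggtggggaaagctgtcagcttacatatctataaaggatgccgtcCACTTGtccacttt
Sftpb: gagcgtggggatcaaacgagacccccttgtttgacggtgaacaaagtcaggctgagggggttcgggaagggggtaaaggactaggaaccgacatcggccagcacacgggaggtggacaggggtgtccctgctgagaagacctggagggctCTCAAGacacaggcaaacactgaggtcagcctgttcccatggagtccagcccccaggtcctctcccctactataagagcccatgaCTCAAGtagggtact
Retnla: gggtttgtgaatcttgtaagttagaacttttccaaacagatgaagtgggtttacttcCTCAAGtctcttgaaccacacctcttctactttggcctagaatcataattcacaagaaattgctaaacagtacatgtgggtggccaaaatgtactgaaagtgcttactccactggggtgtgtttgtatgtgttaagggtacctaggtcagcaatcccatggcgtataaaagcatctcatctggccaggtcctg
The first base of a match lay at -202, -166 and -14 from the start in Sftpa1, at -100 and -15 in Sftpb and at -193 in Retnla. CAAGTG was found in 11.6% and CTCAAG in 13.6% of 27025 RefSeq promoters of that length, and either hexamer in 22.8%. Of the 5 selection markers in the promoter table, 2 held a match (Sftpa1 and Sftpb). Of 40 promoters matched from 4 lists of AT2 genes, 9 held one, which was 22.5% and near the share over all promoters.

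The 2 libraries held 9301 control and 9522 Dnmt1iECKO cells, of which 8021 and 8102 passed the filters on genes and mitochondrial UMIs. Among the cells past the filters, 64.9% of the control and 26.5% of the Dnmt1iECKO library were endothelial by their markers, and 5.11% and 20.8% were T cells. The libraries shared 29 cell barcodes, and 0 AT2 cells carried any of them. AT2 cells were deep: the median was 29867 UMIs per cell in the control library (3167 to 99031) and 34097.5 in the Dnmt1iECKO library (3237 to 90418), with medians of 5326 and 5577.5 detected genes. Mitochondrial UMIs made up a median of 2.07% and 2.08%. Summed over cells, the comparison rested on 4558601 control and 1967306 Dnmt1iECKO UMIs, so the Dnmt1iECKO values are the less precise.

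The cells were accounted for at each step of the selection. Of the cells without Ptprc, 141 control and 53 Dnmt1iECKO cells were over the Sftpc threshold, and 1 of these lacked the further markers. A further 243 control and 78 Dnmt1iECKO cells had at least 2 of the 5 markers but Sftpc at or below the threshold. All 5 further markers were detected in 137 of 141 and 51 of 52 cells. Sftpc exceeded 5% of UMIs in 126 and 45 cells. The control cells nearest the threshold had 0.569% and 0.707% inside and 0.259% and 0.257% outside, and the nearest Dnmt1iECKO cells had 0.556% and 0.668% inside and 0.455% and 0.303% outside. Another 10 control and 3 Dnmt1iECKO cells met every condition except Ptprc, and 29 and 5 met every condition except the quality filters.

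AT2 cells were a smaller share of the Dnmt1iECKO library. They made up 1.76% of control cells past the filters (95% exact Clopper-Pearson interval 1.48 to 2.07) and 0.642% of Dnmt1iECKO cells (0.480 to 0.841). The ratio was 0.365, or -1.45 on the log2 scale (-1.94 to -0.99). All intervals cover counting error only and not the spread between mice. Those of summed UMIs treat each UMI as independent, so they also leave out the spread between cells. The share of AT1 cells was 2.31% in the control and 0.901% in the Dnmt1iECKO library, a log2 ratio of -1.36 (-1.77 to -0.96). There were 0.762 AT2 cells per AT1 cell in the control library and 0.712 in the other, and the interval of that log2 ratio, -0.73 to 0.53, included 0. Among cells without Ptprc, AT2 cells were 2.15% and 1.54%, a log2 ratio of -0.48 (-0.97 to -0.01). Live CD31-positive, CD45-negative cells were sorted before loading, a gate that should leave out epithelium, so these shares can be set by the sort. Ptprc-positive cells that passed the gate were 1466 in the control and 4729 in the Dnmt1iECKO library, and their part in the AT2 share was not tested.

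The genes that led the chosen cells are given as a description, since several of them chose the cells. Ranked by fold over all other cells, the 10 leading genes were Sftpc, Sftpa1, Sftpb, Cxcl15, Sftpd, Hc, Slc34a2, Chil1, Scd1 and Lamp3. They encode the 4 surfactant proteins, the lung chemokine CXCL15, complement component C5, the phosphate transporter, a chitinase-like protein, a fatty acid desaturase and a lamellar body membrane protein. The epithelial adhesion gene Epcam was detected in 92.2% of control and 98.1% of Dnmt1iECKO AT2 cells. Ptprc was at 0 by the rule, Cd3e was at 0, the 18 genes of the immune list summed to 0.00125% and 0.00325% of UMIs, and the melanocyte genes Dct, Tyr, Tyrp1, Sox10 and S100b were at 0 in both.

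Sftpc was also found in cells that should lack it. With each cell thinned to 2000 UMIs, Sftpc was detected in 8.95% of control and 2.96% of Dnmt1iECKO endothelial cells, and in 9.41% and 2.15% of T cells (36.5%, 17.8%, 35.6% and 13.5% unthinned). It was detected in 100% of thinned AT2 cells, which were chosen for it. Shares of other cell types with an AT2 gene at or below these were read as background, and its source was not tested.

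Surfactant protein transcripts took almost the same share of AT2 UMIs in both libraries. Sftpc alone was 14.5% of control and 13.9% of Dnmt1iECKO UMIs. The share per cell ranged from 0.569% to 27.4% (median 15.9%) in the control and from 0.556% to 25.3% (median 15.3%) in the Dnmt1iECKO library, so the ranges overlapped almost fully. Sftpa1, the most abundant collectin here, was 2.28% and 2.20%, and Sftpb, the protein that spreads the lipid film, was 0.763% and 0.759%. Expression is given from here on as CPM, the UMIs of a gene per 1000000 UMIs of the summed AT2 cells, and differences as the log2 ratio of Dnmt1iECKO over control CPM with its 95% exact interval in parentheses. UMIs are counted at transcript ends, so no length scaling applies. Sftpd, the other collectin, had 5269 CPM in the control and 4718 in the Dnmt1iECKO AT2 cells, a log2 ratio of -0.16 (-0.19 to -0.12). The median over the 4 genes was -0.06, against -0.01 over all 7013 genes with at least 100 UMIs.

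**Figure D1:**
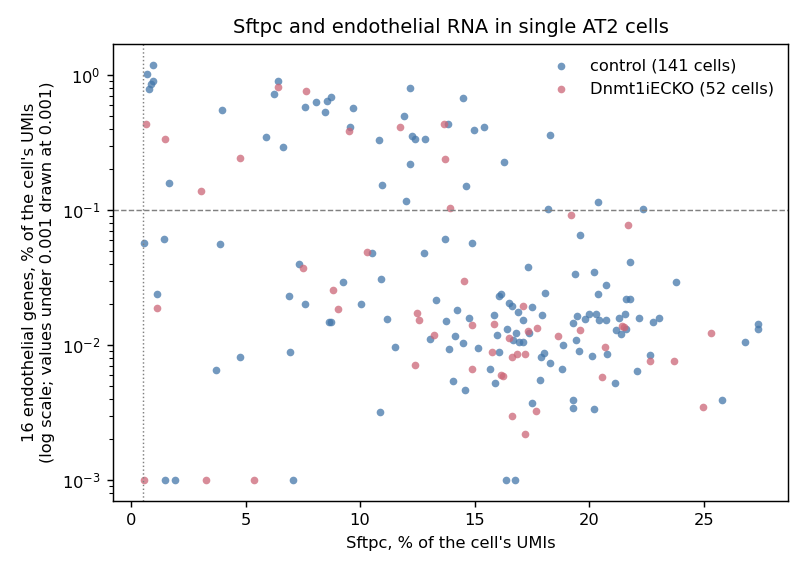
Each point is 1 AT2 cell, with Sftpc as a percentage of its UMIs on the horizontal axis and the summed 16 endothelial genes as a percentage of its UMIs on a logarithmic vertical axis, for 141 control and 52 Dnmt1iECKO cells. Cells of both libraries fall into a lower cloud and an upper cloud around the dashed line at 0.1%, which 37 control and 11 Dnmt1iECKO cells exceed, and the dotted line is the Sftpc threshold of 0.5%.

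Genes of other cell types were detected in many AT2 cells, above the thresholds below in a minority, and moved with several results. The endothelial gene Egfl7 had a UMI in 55.3% of control and 53.8% of Dnmt1iECKO AT2 cells, and in 14.2% and 13.5% with cells thinned to 2000 UMIs. At least 3 AT1 markers were detected in all but 28 control and 8 Dnmt1iECKO cells. The 16 endothelial genes exceeded 0.1% of UMIs in 37 of 141 control cells (26.2%, 19.2 to 34.3) and 11 of 52 Dnmt1iECKO cells (21.2%, 11.1 to 34.7). Those cells had more UMIs, with medians of 35992 and 46364 against 29109.5 and 33578 in the other AT2 cells, and less Sftpc, with medians of 10.8% and 7.65% against 17.0% and 16.6%. The list summed to 0.157% and 0.127% of AT2 UMIs, and of its 15 genes with enough UMIs 14 had a log2 ratio below 0. Of these 15, 0 were at least 2-fold higher and 1 at least 2-fold lower (0.442% and 1.44% over all genes). The 20 genes of the AT1 list exceeded 0.8% of UMIs in 3 cells of each library. Genes of fibroblasts and smooth muscle exceeded 0.1% in 12 control cells and 1 Dnmt1iECKO cell. The list of 15 such genes summed to 0.0617% and 0.0220%. To read a result beside these cells, values are also given without them: an exclusion chosen after the data were seen left out cells over 0.1% for the endothelial list, cells over 0.8% for the AT1 list, and cells with at least 3 of 7 fibroblast and muscle genes, and kept 102 control and 40 Dnmt1iECKO cells. These are called the purer cells below. Their values for genes used in the exclusion are in part set by it.

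Differences of 2-fold or more were few. Of the 7013 genes, 89.3% had log2 ratios within 0.5 of 0, 31 genes were at least 2-fold higher in the Dnmt1iECKO AT2 cells (0.442%), and 101 were at least 2-fold lower (1.44%). These are counts past a size, not of genes that passed a test. Of the list of 25 other AT2 genes, 0 were past 2-fold in either direction, and their median log2 ratio was 0.08. In the same list Chil1 had a log2 ratio of -0.22 (-0.27 to -0.16), Lyz2, a lysozyme gene of AT2 cells and macrophages, -0.04 (-0.06 to -0.02), and Cxcl15 0.08 (0.05 to 0.11).

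**Figure D2:**
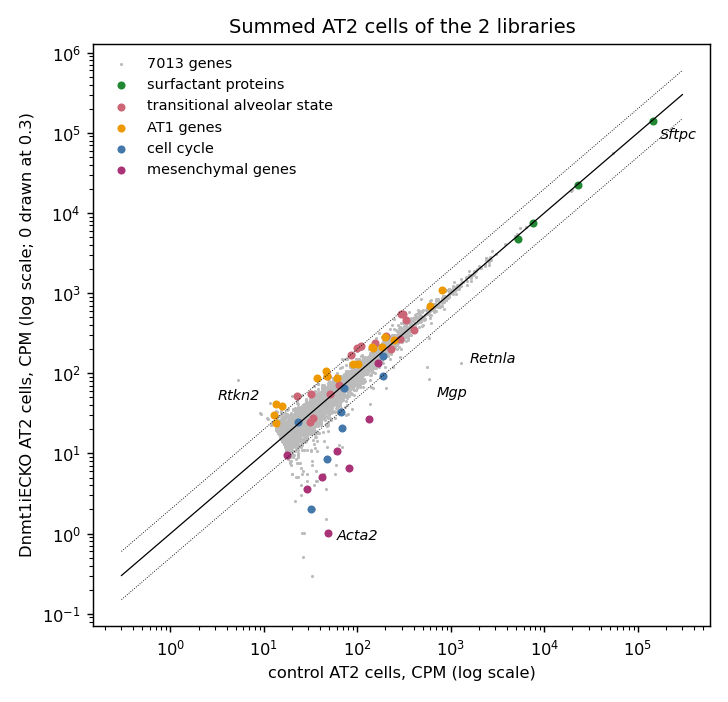
Each point is 1 of 7013 genes, with its CPM in the summed control AT2 cells on the horizontal axis and in the summed Dnmt1iECKO AT2 cells on the vertical axis, both logarithmic, and 5 lists in color. The solid line marks equal values and the dotted lines a 2-fold difference. The 4 surfactant proteins lie on the solid line, while cell cycle and mesenchymal genes, Retnla and Mgp lie below it.

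The machinery of surfactant storage was slightly higher or level. Of 20 genes for processing and lamellar bodies, 16 had enough UMIs, 13 were above 0 and 3 below, and 0 were past 2-fold, with a median log2 ratio of 0.11. The lipid loader Abca3 had 1922 UMIs in the control and 971 in the Dnmt1iECKO cells (422 and 494 CPM), a log2 ratio of 0.23 (0.11 to 0.34). Ctsh and Napsa encode the proteases that mature the surfactant protein precursors. Ctsh had 690 and 836 CPM, a log2 ratio of 0.28 (0.19 to 0.36), while Napsa had 1852 and 1886 CPM, with an interval that included 0 (-0.03 to 0.08). Atp8a1, which flips phospholipid across membranes, was the lowest of the list with 1139 and 970 CPM, a log2 ratio of -0.23 (-0.31 to -0.16).

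Genes of lipid synthesis leaned the same way without passing 2-fold. Of 30 genes, 26 had enough UMIs, 19 were above 0 and 7 below, 10 intervals lay above 0 and 2 below, and the median was 0.15. Fasn, the fatty acid synthase, had 2037 and 1209 UMIs (447 and 615 CPM), a log2 ratio of 0.46 (0.36 to 0.56), and 0.62 in the purer cells. Chka, which makes phosphocholine for surfactant phospholipid, had 262 and 352 CPM, a log2 ratio of 0.42 (0.29 to 0.56). The malic enzyme Me1 and the fatty acid binding protein Fabp5 each had a log2 ratio of 0.30. Gpam, which adds the first acyl chain to glycerol phosphate, lay the other way with 187 and 134 CPM, a log2 ratio of -0.49 (-0.69 to -0.29). Across cells, the lipid list and Sftpc had a Spearman rho of 0.25 over 141 control cells and 0.53 over 52 Dnmt1iECKO cells, and of 0.10 and 0.34 over the 104 and 41 cells at or under 0.1% for the endothelial list, values that share each cell's total as denominator.

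Cholesterol genes were split. Of 22 genes, 18 had enough UMIs, with 10 above 0 and 8 below and a median of 0.05. Soat1, which esterifies cholesterol, had 391 and 484 CPM, a log2 ratio of 0.31 (0.19 to 0.42). The synthesis enzymes Fdps and Cyp51 had log2 ratios of -0.42 (-0.63 to -0.21) and -0.42 (-0.76 to -0.08).

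Ion transport genes, which set the fluid on the alveolar surface, lay on both sides of 0. Scnn1a, a subunit of the epithelial sodium channel, had 233 and 179 UMIs (51.1 and 91.0 CPM), a log2 ratio of 0.83 (0.54 to 1.12), and 0.47 in the purer cells. Cftr, the chloride channel, had 555 and 157 UMIs (122 and 79.8 CPM), a log2 ratio of -0.61 (-0.87 to -0.35), and -0.69 in the purer cells. The chloride channel Ano1 was past 2-fold with 63 and 64 UMIs, a log2 ratio of 1.24 (0.71 to 1.76), but 0.10 in the purer cells. Over the 11 genes of the list with enough UMIs the median was 0.21, with 1 gene at least 2-fold higher and 0 lower (0.442% and 1.44% over all genes).

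Transcription factors of the alveolus were level. Nkx2-1 had 886 and 388 UMIs (194 and 197 CPM), a log2 ratio of 0.02 (-0.15 to 0.19), and Etv5, which maintains AT2 identity, 264 and 279 CPM (-0.07 to 0.23). Of 17 factors with enough UMIs 0 were past 2-fold, 5 intervals lay above 0 and 0 below, and the median was 0.08. Klf5 (107 and 137 CPM), Gata6 (86.2 and 108 CPM) and Stat3 (417 and 503 CPM) had log2 ratios of 0.36, 0.32 and 0.27. Hopx, shared with AT1 cells, had the highest of the list at 0.59 (0.41 to 0.77) and lay at -0.68 in the purer cells.

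**Figure D3:**
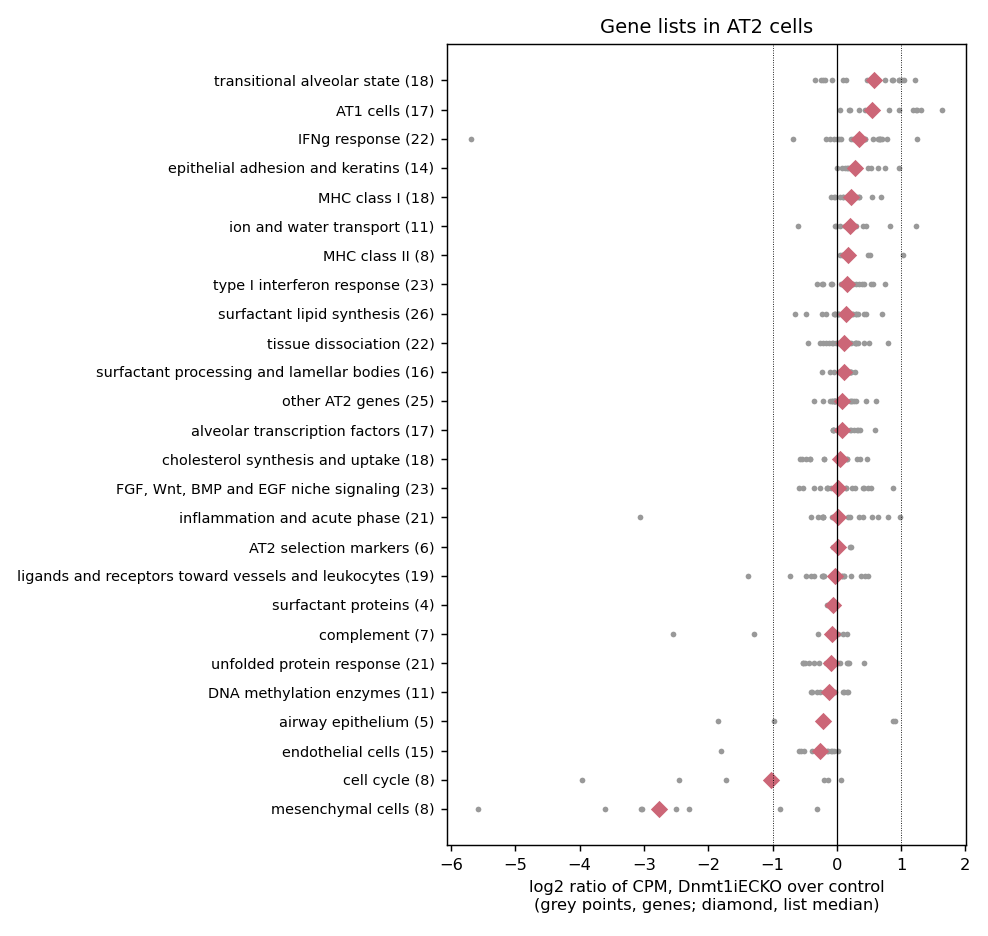
For each gene list, with the number of genes with at least 100 UMIs in parentheses, grey points are the log2 ratios of single genes, Dnmt1iECKO over control, and diamonds are the list medians. Dotted lines mark a 2-fold difference. Lists of AT2 function lie near 0, the transitional and AT1 lists have medians of 0.58 and 0.54, and the cell cycle and mesenchymal lists lie at -1.02 and -2.77.

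AT1 genes were higher in the Dnmt1iECKO AT2 cells, but in few cells. All 17 AT1 genes with enough UMIs were above 0, 16 intervals lay above 0, 5 were at least 2-fold higher (the share over all genes was 0.442%), and the median was 0.54. The 5 were Rtkn2, Cyp2b10, Col4a3, Pdpn and Col4a4. Rtkn2, an AT1 marker, had 61 and 82 UMIs, of which 3 Dnmt1iECKO cells held 89.0%. The list summed to 0.279% and 0.376% of AT2 UMIs, against 3.32% and 2.87% in the AT1 cells of the same libraries. The median share per cell was almost the same, 0.244% and 0.245%, and the highest cell had 1.15% in the control and 2.81% in the Dnmt1iECKO library. Without the cells over 0.8% for the list its median was -0.06. That cut, also used to choose the purer cells, rests on the list's own genes, so a fall follows in part from the cut. In the purer cells the list median was -0.09, Rtkn2 lay at -1.39 with 30 and 5 UMIs, Akap5 at -1.65 and Ager, the AT1 receptor RAGE, at -0.09 in place of 0.44. All 3 Dnmt1iECKO cells over 0.8% for the AT1 list were also over 0.1% for the endothelial list, as was 1 of the 3 control cells.

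Transitional genes were higher over more cells. Of 23 genes that mark the keratin 8-high state between AT2 and AT1, 18 had enough UMIs, 13 were above 0 and 5 below, 3 were at least 2-fold higher (0.442% over all genes), and the median was 0.58. Krt8 itself had 703 and 474 UMIs (154 and 241 CPM), a log2 ratio of 0.64 (0.47 to 0.81). Anxa1, an anti-inflammatory annexin, had 306 and 555 CPM, a log2 ratio of 0.86 (0.74 to 0.97). The epidermal growth factor receptor ligands Areg and Hbegf had log2 ratios of 0.88 (0.76 to 0.99) and 1.01 (0.82 to 1.20). Areg (chr5:91139599-91148432, plus strand, GRCm38) had 1351 and 1071 UMIs, or 296 and 544 CPM. Lgals3, a galectin, had 85.1 and 167 CPM, a log2 ratio of 0.97 (0.76 to 1.19).

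Per cell, the transitional list took a median of 0.247% of UMIs in the control (0.0463% to 0.815%) and 0.267% in the Dnmt1iECKO library (0.0749% to 1.79%). The medians lay close together, and the 4 highest cells were Dnmt1iECKO cells. The list exceeded 0.5% in 11 of 141 control cells (7.80%, 3.96 to 13.5) and 14 of 52 Dnmt1iECKO cells (26.9%, 15.6 to 41.0), cells that had median depths of 34648 and 32250 UMIs. Among cells at or under 0.1% for the endothelial list the counts were 10 of 104 (9.62%) and 10 of 41 (24.4%). At least 10 UMIs of Hbegf were found in 12 of 141 and 14 of 52 cells, and in 6 of 104 (5.77%) and 6 of 41 (14.6%) of the cells at or under 0.1% for the endothelial list. There were at least 50 UMIs of Areg in 5 and 7 cells, of which 3 and 6 were also over 0.5% for the transitional list. Of the control and Dnmt1iECKO cells over 0.5%, 0 and 2 were over 0.8% for the AT1 list.

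In the purer cells part of this difference remained. Areg had a log2 ratio of 0.84 (0.71 to 0.96), Anxa1 0.75 (0.61 to 0.90), Hbegf 0.56 (0.30 to 0.81) and Krt8 0.44 (0.24 to 0.64), while S100a6 went from 1.04 to -0.02 and Itgb6 from 1.21 to 0.21. The median of the list was then 0.23, and -0.11 when every cell was thinned to 2000 UMIs, where 6 genes had enough UMIs. The genes of the p53 response, Cdkn1a and Mdm2, lay the other way, with log2 ratios of -0.18 (-0.35 to -0.01) and -0.33 (-0.83 to 0.14). In AT1 cells Anxa1 differed by nearly as much, 0.87 (0.74 to 1.00), whereas Krt8 had -0.14 (-0.37 to 0.09).

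**Figure D4:**
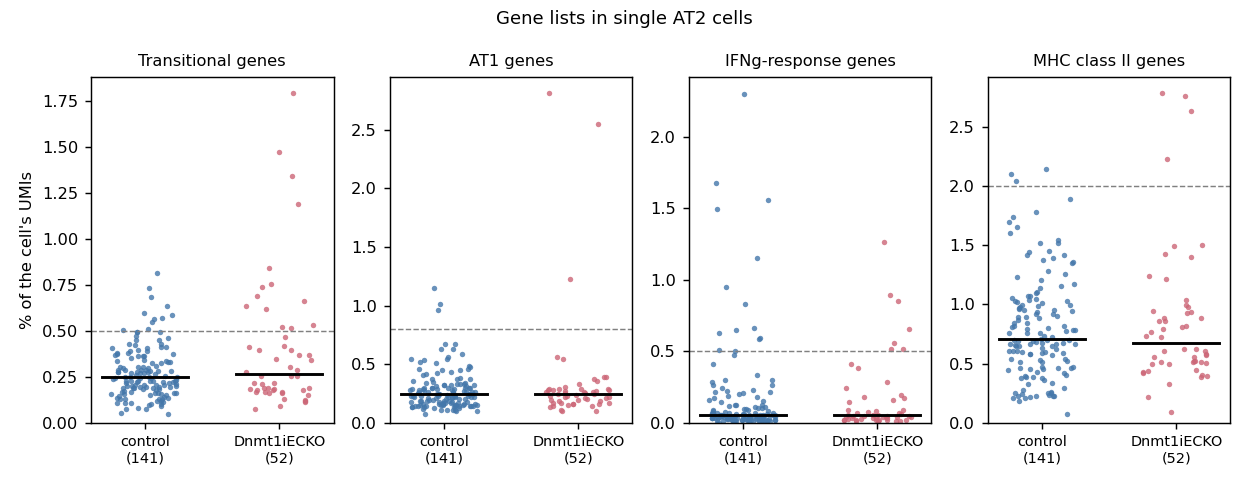
Each point is 1 AT2 cell, 141 control and 52 Dnmt1iECKO, with the percentage of its UMIs from the transitional, AT1, interferon-gamma-response and MHC class II lists. Bars are medians and dashed lines the thresholds of 0.5%, 0.8%, 0.5% and 2% used for counting cells. Medians of the libraries lie close together in all 4 panels, and 14 of 52 Dnmt1iECKO cells lie over the line for transitional genes against 11 of 141 control cells.

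Keratins and junction genes, which partly overlap that list, followed it. Of 14 epithelial adhesion and keratin genes 13 were above 0, 9 intervals lay above 0 and 0 below, 0 were past 2-fold, and the median was 0.28. Krt7 had 47.8 and 93.5 CPM, a log2 ratio of 0.97 (0.68 to 1.26), and 0.25 in the purer cells. Cdh1, the epithelial cadherin, had 189 and 265 CPM, a log2 ratio of 0.49 (0.33 to 0.65), and 0.38 in the purer cells. Cldn3, a claudin of tight junctions, had 355 and 354 CPM.

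Antigen presentation genes were slightly higher over all AT2 cells, by an amount that depended on which cells were kept. Without the cells that had Cdh5 or Pecam1, the list medians were 0.0013 for class II and 0.025 for class I over 76 and 28 cells. Without cells that had 3 AT1 markers they were 0.051 and 0.41, over 28 and 8 cells. All 8 MHC class II genes with enough UMIs were above 0, 7 intervals lay above 0, and the median was 0.17. Cd74, the class II invariant chain, had 22132 and 10218 UMIs (4855 and 5194 CPM), a log2 ratio of 0.10 (0.06 to 0.13), and was detected in 139 and 50 cells thinned to 2000 UMIs. H2-DMb2, a peptide-loading subunit, was the 1 gene at least 2-fold higher (0.442% over all genes). It had 118 and 104 UMIs (25.9 and 52.9 CPM), a log2 ratio of 1.03 (0.64 to 1.42), and 1.09 in the purer cells. The class II transactivator Ciita had 45.8 and 65.6 CPM, a log2 ratio of 0.52 (0.19 to 0.84). Over 2% of UMIs came from the class II list in 3 control and 4 Dnmt1iECKO cells.

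MHC class I genes had a median log2 ratio of 0.21 over 18 genes, with 15 above 0, 11 intervals above 0 and 0 below, and 0 past 2-fold. B2m, the light chain, had 2349 and 2714 CPM, a log2 ratio of 0.21 (0.16 to 0.26). Tap1 and Psmb10, which load and cut peptides, had log2 ratios of 0.68 (0.38 to 0.98) and 0.55 (0.27 to 0.82). In the purer cells B2m lay at 0.31 (0.25 to 0.37), Tap1 at 0.65 and Psmb10 at 0.85. There the heavy chain gene H2-D1 lay at 0.06, with an interval that included 0 (-0.01 to 0.13). H2 genes, like Gbp and Tgtp genes, are near-identical copies in part, and reads shared between copies make their single values uncertain.

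Interferon-gamma-response genes varied widely between cells. Of 32 genes 31 were in the matrices and 22 had enough UMIs, with 17 above 0 and 5 below and a median of 0.35. In this list 1 gene was at least 2-fold higher and 1 at least 2-fold lower (0.442% and 1.44% over all genes). The list exceeded 0.5% of UMIs in 13 of 141 control (9.22%, 5.00 to 15.3) and 7 of 52 Dnmt1iECKO cells (13.5%, 5.59 to 25.8), of which 9 and 3 were also over 0.1% for the endothelial list. The medians per cell were 0.0524% and 0.0511%. In endothelial cells the list was 0.571% and 0.563% of UMIs, against 0.158% and 0.202% in AT2 cells. Igtp, an interferon-induced GTPase, was past 2-fold with 211 and 216 UMIs (46.3 and 110 CPM), a log2 ratio of 1.25 (0.97 to 1.53), and 1.97 in the purer cells. Iigp1, of the same family, had 357 and 580 CPM, a log2 ratio of 0.70 (0.59 to 0.81), and 1.78 in the purer cells.

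Single cells decided the chemokines of this list. Cxcl9 had 120 UMIs in the control and 1 in the Dnmt1iECKO cells, a log2 ratio of -5.69 (-11.01 to -3.19), but 3 control cells held 97.5% of its UMIs. Cxcl10 had 298 and 80 UMIs, a log2 ratio of -0.68 (-1.06 to -0.32), but 7 UMIs in each library were in the purer cells, where the interval included 0 (-0.55 to 2.93). The median of the list was 0.90 in the purer cells, 0.04 when only cells over 0.8% for the AT1 list were left out, -0.10 for the mean CPM of single cells and -0.32 with cells thinned to 2000 UMIs, where 2 genes had enough UMIs. MHC class I and interferon-gamma-response shares per cell had a Spearman rho of 0.51 over 141 control and 0.72 over 52 Dnmt1iECKO cells. Type I interferon genes had a median of 0.17 over 23 genes, with 6 intervals above 0 and 0 below. Isg15, a ubiquitin-like protein, had 89.5 and 117 CPM, a log2 ratio of 0.39 (0.15 to 0.63).

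Inflammatory genes had no common direction. Of 35 genes 21 had enough UMIs, with 11 above 0 and 10 below and a median of 0.01. Cxcl17, a mucosal chemokine, had 172 and 146 UMIs (37.7 and 74.2 CPM), a log2 ratio of 0.98 (0.65 to 1.30), and 1.13 in the purer cells. Birc3 and Tnfaip3, targets of NF-kB, had log2 ratios of 0.55 (0.33 to 0.76) and 0.64 (0.31 to 0.97), whereas Nfkbiz, of the same pathway, had -0.30 (-0.48 to -0.12). Lcn2, an iron-binding acute phase protein, had 1494 and 1420 CPM, and the alarmin Il33 had 432 and 422 CPM, each log2 ratio within 0.1 of 0. Ccl2, a monocyte chemokine, had 97 and 5 UMIs, of which 1 control cell held 53. Of 7 complement genes with enough UMIs 0 were at least 2-fold higher and 2 lower (0.442% and 1.44% over all genes). Serping1, a regulator of the cascade, had 402 and 71 UMIs and lay at 2.87 in the purer cells, with 15 and 48 UMIs.

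Some genes of endoplasmic reticulum chaperones were lower. Of 26 unfolded protein response genes 24 were in the matrices and 21 had enough UMIs. Of these 15 were below 0 and 6 above, 7 intervals lay below 0 and 1 above, 0 were past 2-fold, and the median was -0.08. Hspa5, the chaperone BiP, had 3892 and 1248 UMIs (854 and 634 CPM), a log2 ratio of -0.43 (-0.52 to -0.34). The transcription factor Xbp1 had 102 and 72.7 CPM, a log2 ratio of -0.49 (-0.77 to -0.22). Manf and Pdia4, both secretory pathway proteins, had -0.52 (-0.76 to -0.28) and -0.53 (-0.88 to -0.19). Atf6, a sensor of the pathway, lay the other way at 0.42 (0.17 to 0.67). In the purer cells Hspa5, Xbp1, Manf and Pdia4 had log2 ratios of -0.37, -0.55, -0.43 and -0.47. There Calr, Hsp90b1, Pdia3 and Pdia6, of the same compartment, lay at -0.06, -0.09, -0.01 and -0.09, with intervals that included 0. The list median was 0.37 without cells that had 3 AT1 markers, which kept 28 and 8 cells. Hspa5 also had a lower CPM in Dnmt1iECKO endothelial cells (808 and 732), a log2 ratio of -0.14 (-0.17 to -0.12).

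Genes that respond to tissue dissociation were high in both libraries and split by kind. The 22 genes took 1.58% of control and 1.76% of Dnmt1iECKO AT2 UMIs and had a median log2 ratio of 0.11, with 10 intervals above 0, 6 below and 0 genes past 2-fold. The zinc finger factor Klf6 had 481 and 836 CPM, a log2 ratio of 0.80 (0.70 to 0.89), and 0.85 in the purer cells. Fos and Egr1, immediate early genes, had log2 ratios of 0.29 (0.25 to 0.34) and 0.31 (0.23 to 0.38). The heat shock genes lay below 0, with Hspa1b at -0.45 (-0.68 to -0.24) and Hspa8 at -0.16 (-0.26 to -0.07). The dissociation list and the transitional list thus both had medians above 0, and the part of the first in the ratios of the second was not tested.

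Receptors for niche signals were near level. Of 34 genes of fibroblast growth factor, Wnt, bone morphogenetic protein and epidermal growth factor signaling, 23 had enough UMIs, with 14 above 0 and 9 below, 0 past 2-fold and a median of 0.02. Fgfr2, the receptor that maintains AT2 cells, had 1729 and 585 UMIs (379 and 297 CPM), a log2 ratio of -0.35 (-0.49 to -0.21), and -0.31 in the purer cells. Its target Etv5 was level, and Dusp6, a feedback phosphatase, lay at 0.53 (0.12 to 0.94). Bmp4, made by AT2 cells here, had 69.8 and 63.0 CPM. The Smad target Id3 had 65.2 and 45.2 CPM, a log2 ratio of -0.53 (-0.88 to -0.18).

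Genes by which AT2 cells signal to vessels and leukocytes had a median log2 ratio of -0.03 over 19 genes. Vegfa, the vascular growth factor, had 148 and 207 CPM, a log2 ratio of 0.49 (0.31 to 0.67), and 0.12 in the purer cells. The AT1 cells of these libraries had 1805 and 1517 CPM of Vegfa, and it lay lower in their Dnmt1iECKO library, with a log2 ratio of -0.25 (-0.34 to -0.17). Kitl, the ligand of the Kit receptor, had 136 and 81.8 CPM, a log2 ratio of -0.73 (-0.99 to -0.48). Endothelial cells held 1238 and 870 CPM of Kitl, also lower in the Dnmt1iECKO library at -0.51 (-0.53 to -0.49), and in the purer AT2 cells Kitl had 35 and 8 UMIs (11.2 and 5.83 CPM), with an interval of the log2 ratio that included 0 (-2.26 to 0.20). Angpt1 was past 2-fold with 170 and 28 UMIs, a log2 ratio of -1.39 (-2.02 to -0.81), of which 13 and 1 UMIs were in the purer cells (-7.92 to 0.23). Both interferon-gamma receptor genes, Ifngr1 and Ifngr2, had a log2 ratio of 0.11 with intervals that included 0.

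Cell cycle genes were high in few AT2 cells of either library. Mki67, a proliferation marker, had at least 10 UMIs in 4 of 141 control cells (2.84%, 0.778 to 7.10) and 1 of 52 Dnmt1iECKO cells (1.92%, 0.0487 to 10.3), and the intervals overlap. The same 4 cells and 1 cell exceeded 0.2% of UMIs for the cell cycle list. The summed counts were lower in the Dnmt1iECKO library: of 24 genes 8 had enough UMIs, 5 were at least 2-fold lower (1.44% over all genes), 0 higher, and the median was -1.02. Mki67 had 302 and 64 UMIs, a log2 ratio of -1.03 (-1.44 to -0.63), and Top2a, which untangles DNA, 314 and 41. The 3 highest control cells held 81.8% of Mki67 UMIs and 84.4% of Top2a UMIs, so these ratios rest on 4 control cells and 1 Dnmt1iECKO cell. The Dnmt1iECKO cell and 1 of the 4 control cells were also over 0.1% for the endothelial list. Among the cells at or under it 3 of 104 and 0 of 41 had at least 10 UMIs of Mki67 (the latter interval reaches 8.60%), and the list median was -2.01. In the purer cells Mki67 had 215 and 6 UMIs, a log2 ratio of -3.97 (-5.43 to -2.83).

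Dnmt1 itself was low in AT2 cells. It had 129 UMIs in the control and 45 in the Dnmt1iECKO AT2 cells, or 28.3 CPM (23.6 to 33.6) against 22.9 CPM (16.7 to 30.6). Its log2 ratio was -0.31 (-0.83 to 0.19), an interval that included 0. In the purer cells Dnmt1 had 103 and 26 UMIs, a log2 ratio of -0.79 (-1.47 to -0.16), and without cells that had Cdh5 or Pecam1 it lay at -1.08 (-1.95 to -0.30), so the value depended on which cells were kept. Cells rich in Mki67 were also uneven there: in the purer cells Mki67 had 215 and 6 UMIs. Among cells at or under 0.1% for the endothelial list, 3 of 104 control and 0 of 41 Dnmt1iECKO cells had at least 10. The part of these cells in the Dnmt1 ratio was not tested. Over all AT2 cells it was found in 41.8% and 51.9%. In endothelial cells, the type targeted, Dnmt1 had 52.0 and 30.8 CPM, a log2 ratio of -0.76 (-0.86 to -0.65). The UMIs lie at the 3′ end of Dnmt1 (chr9:20907209-20959888, minus strand, GRCm38), and the sources used do not give the floxed exons, so these counts do not check the deletion. Of the other DNA methylation genes, Dnmt3a had 38.0 and 29.0 CPM, a log2 ratio of -0.39 (-0.85 to 0.05), and Tet2, which oxidizes methylcytosine, 39.3 and 43.7 CPM. Of 11 genes of the list with enough UMIs 0 were past 2-fold, 0 intervals excluded 0, and the median was -0.12.

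Retnla (chr16:48842551-48844461, plus strand, GRCm38), which encodes the secreted protein RELM-alpha, was among the 10 lowest genes by the naming rule and had the most UMIs of them. It had 5847 UMIs in the control and 266 in the Dnmt1iECKO AT2 cells (1283 and 135 CPM), a log2 ratio of -3.25 (-3.43 to -3.07). At least 1 UMI was found in 61 of 141 and 16 of 52 cells, and at least 10 in 36 (25.5%, 18.6 to 33.6) and 5 (9.62%, 3.20 to 21.0). The highest control cells held 926, 647, 536 and 423 UMIs and the highest Dnmt1iECKO cells 173, 26, 16 and 15, so the control library had a tail of rich cells that the other nearly lacked. With cells thinned to 2000 UMIs the shares with a UMI were 27.0% and 9.62%, against 0.495% and 0.239% of T cells, where it should be absent. Summed T cells still held 434 and 23 Retnla UMIs (74.4 and 1.01 CPM), in 1.95% and 1.25% of unthinned cells. Their log2 ratio, -6.20 (-6.88 to -5.60), had the same direction as in AT2 cells, and its source was not tested. The difference was as wide in cells poor in endothelial RNA, where 29 of 104 and 4 of 41 cells had at least 10 UMIs, and the ratio was -3.00 in the purer cells. It was 0.13 when every cell with 3 AT1 markers was left out, which kept 28 and 8 cells. AT1 cells had 1.55 CPM in the control and 649 in the Dnmt1iECKO library, the reverse order, but 1 of 147 and 1 of 56 thinned AT1 cells had a UMI. The promoter of Retnla shown above holds 1 hexamer match, as do 22.8% of promoters.

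**Figure D5:**
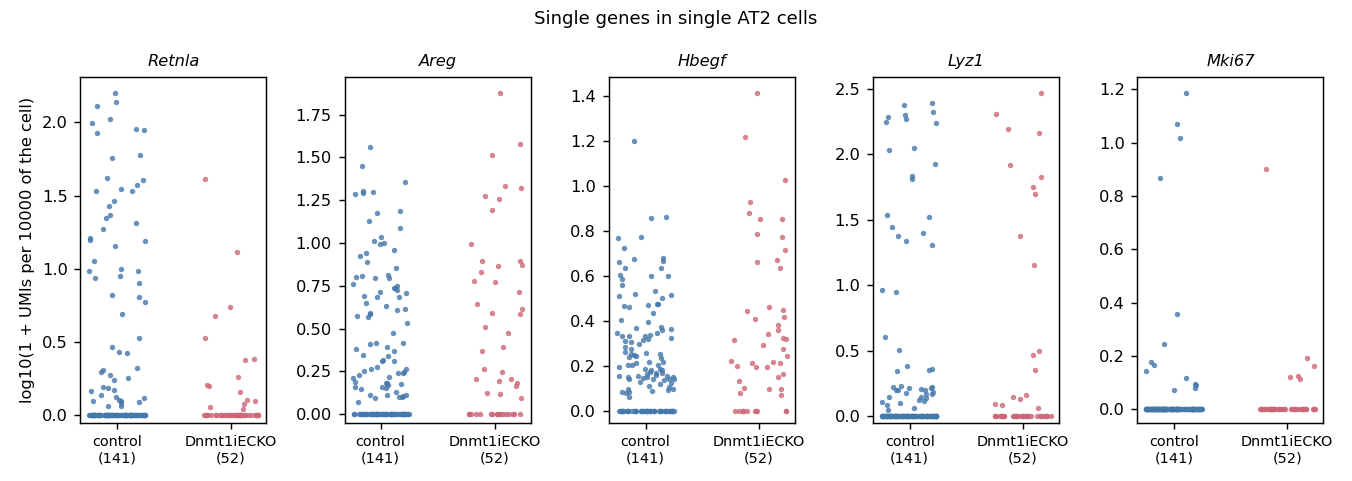
Each point is 1 AT2 cell, 141 control and 52 Dnmt1iECKO, with the UMIs of a gene per 10000 UMIs of the cell, plus 1, on a log10 scale, for Retnla, Areg, Hbegf, Lyz1 and Mki67. Retnla has a tail of rich control cells, Hbegf has at least 10 UMIs in 12 control and 14 Dnmt1iECKO cells, Lyz1 is at 0 in most cells of both libraries, and Mki67 is high in 4 control cells and 1 Dnmt1iECKO cell.

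Lyz1, the other lysozyme gene, split the AT2 cells alike in both libraries. It was detected in 36.2% and 36.5% of them, with 7185 and 3732 UMIs, a log2 ratio of 0.27 (0.21 to 0.32). Lyz1 is a near copy of Lyz2, and its reads may be shared. The airway secretoglobin Scgb1a1 had 1091 and 239 UMIs, a log2 ratio of -0.98 (-1.19 to -0.77), of which 2 control cells held 505 and 340. Of the airway list, Krt5, Muc5b and Scgb3a1 were at 0 in both libraries, 5 of 16 genes had enough UMIs, and the median was -0.21.

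The 10 lowest genes by the naming rule were Tagln, Eln, Retnla, Ccl2, Sod3, Robo2, Fstl1, Fn1, Slit3 and Mgp, with log2 ratios from -3.61 to -2.79. They were not held by equally few cells: Slit3, a guidance ligand, was found in 32 control and 3 Dnmt1iECKO cells. Robo2, a receptor for such ligands, was found in 25 (17.7%) and 8 (15.4%), and 1 control cell held 71 of its 270 control UMIs. In the purer cells both intervals included 0. There Slit3 had 38 and 9 UMIs, a log2 ratio of -0.89 (-2.12 to 0.19), and Robo2 31 and 13, at -0.06 (-1.12 to 0.91). Mgp, a matrix protein that binds calcium, had 2658 and 166 UMIs, of which 3 control cells held 774, 742 and 669, or 82.2%. Tagln, an actin-binding muscle protein, had 368 and 13 UMIs, 89.9% of the control ones in 3 cells. Of 8 mesenchymal genes with enough UMIs 8 were below 0 and 6 at least 2-fold lower (1.44% over all genes), with a median of -2.77. In the purer cells 1 gene of the list had enough UMIs, Npnt at 0.33, while Mgp, with 47 and 73 UMIs, lay at 1.83 (1.28 to 2.39) and Fn1, fibronectin, had 4 UMIs in each library. The pericyte gene Rgs5, with 150 control UMIs, was at 0 among the Dnmt1iECKO AT2 cells, which against a floor of 3 UMIs over the group is a log2 ratio of at most -4.43.

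The 10 highest were Tmem252, Flrt3, Ptpre, Rtkn2, Gm20186, 9930014A18Rik, Gm4841, Sgms2, Cyp2b10 and Plce1, with log2 ratios from 1.86 to 1.30 and 53 to 102 Dnmt1iECKO UMIs each. Sgms2, a sphingomyelin synthase, had 61 and 66 UMIs, a log2 ratio of 1.33 (0.80 to 1.85), and 1.37 in the purer cells. Ptpre, a tyrosine phosphatase, was detected in 19.9% and 36.5% of cells, with a log2 ratio of 1.72 (1.13 to 2.31), and 1.29 (0.14 to 2.45) in the purer cells, with 14 and 15 UMIs. The noncoding transcripts Gm20186 and 9930014A18Rik were found in 26.2% and 40.4% and in 20.6% and 40.4% of cells, and lay at 1.16 and 1.63 in the purer cells. Gm4841, an interferon-inducible GTPase, had 92 and 102 UMIs, but 3 Dnmt1iECKO cells held 88.2% of them and its ratio was -0.16 for the mean CPM of single cells. Rtkn2, Cyp2b10 and Tmem252 rested on 3 cells each, which held 89.0%, 67.5% and 90.4% of their Dnmt1iECKO UMIs. The top Dnmt1iECKO cell per gene held 24 of 63 Flrt3, 24 of 61 Ptpre, 29 of 66 Sgms2 and 20 of 53 Plce1 UMIs. Control AT1 cells had 271 CPM of Flrt3, 333 of Ptpre, 1592 of Rtkn2, 523 of Cyp2b10, 166 of Plce1 and 61.4 of Tmem252. Control AT2 cells had 8.99, 9.43, 13.4, 15.8, 10.97 and 11.6 CPM of them. Gm20186, 9930014A18Rik, Gm4841 and Sgms2 were lower in control AT1 than in control AT2 cells. Endothelial cells had more Tmem252 than AT1 cells, with 94.9 CPM in the control and 124 in the Dnmt1iECKO library. In the purer AT2 cells Tmem252 had 1 UMI in each library. The part of AT1 or endothelial RNA in these ratios was not tested.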

How the data were processed

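Live CD31-positive, CD45-negative cells sorted from dissociated tumors were profiled with the 10x GEM-X 3′ v4 kit in 2 libraries, each pooled from 3 mice. The authors deposited filtered matrices of UMI counts per gene and cell, which Cell Ranger 9.0.1 produced against mouse genome mm10. Those counts were used as deposited. Cells with at least 500 detected genes and at most 10% mitochondrial UMIs were kept, and AT2 cells were chosen by the rule given above. No doublets were removed in the values reported; Scrublet in scanpy 1.11.5 served as an alternative. UMIs of the AT2 cells were summed per library and divided by their total (CPM), and genes with at least 100 UMIs over both libraries were compared. CPM intervals are exact Poisson intervals, shares have exact Clopper-Pearson intervals, and ratios have exact conditional intervals, all at 95% and computed with scipy 1.17.1. AT1 cells were cells without Ptprc, with Sftpc at or below 0.5% and Ager above 0.1% of UMIs, and at least 2 further AT1 markers. Endothelial cells had no Ptprc or Epcam and at least 3 of 5 endothelial markers. T cells had Ptprc and at least 2 of Cd3e, Cd3d and Trac. Named genes were those of 29 lists, the 10 highest and 10 lowest ratios among genes detected in at least 10% of AT2 cells of the higher library and with the same direction without the cell of each library holding most of the gene's UMIs, and the 10 leading genes over other cells (10 CPM added, at least 25% of AT2 cells). The members and lists were chosen with earlier results of these data known. The scripts were tested on simulated data. Of the processing, 23 alternatives were planned and 4 added after the data were seen. Gene positions are from the GENCODE M21 annotation of GRCm38, and promoters from RefSeq. Some genes of the lists are not reported here.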

Additional observations from a re-analysis of the deposited data

How the results depend on the processing

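With 1 library per condition no result has a replicate check. Intervals cover counting error only, and those of summed UMIs leave out the spread between cells. The Dnmt1iECKO values rest on 52 cells. No paired analysis was possible because each condition has 1 library and the results come from no test. Of 734 alternatives for shares, list medians, counts and Dnmt1, 645 stayed and 89 moved. Of 1246 for single genes, 946 stayed, 241 moved and 59 changed sign. A value stayed when it lay in the main interval, and a count when within a set fold of the main count. For list medians that interval was the median of the single-gene interval ends. Sign changes, here and below, were counted only for genes at least 2-fold apart with an interval that excluded 0. Others, such as Hopx and Ager in the purer cells, are not among the 59. The AT2 share was -1.45 on the log2 scale and moved only with its denominator, to -0.48 over cells without Ptprc and -0.056 over AT2 and AT1 cells. Values below are log2 ratios, and the cause of each move was not tested. Exclusions by endothelial list, AT1 list and fibroblast or muscle genes were added after the data were seen. With at most 5% mitochondrial UMIs, the list median was surfactant proteins -0.074. With no condition on Ptprc, the list median was surfactant proteins -0.031. With Sftpc above 0.1%, the list median was surfactant proteins -0.072. With Sftpc above 1%, the list median was surfactant proteins -0.070. With Sftpc above 2%, list medians were MHC class II 0.092 and complement -0.24. Without the cells with the highest Scrublet scores (19 control and 7 Dnmt1iECKO AT2 cells), list medians were surfactant proteins -0.011, AT1 -0.12, cell cycle -0.36 and endothelial -0.83, and the sign turned for Col4a3 -0.12, Cyp2b10 -0.041, Rtkn2 -1.07 and Tmem252 -0.82. Without cells that had Cdh5 or Pecam1, list medians were AT1 -0.092, airway -0.11, MHC class II 0.0013, MHC class I 0.025, interferon gamma 0.88, dissociation 0.28, cell cycle -2.25 and mesenchymal 0.22, the counts past 2-fold were 36 lower, Dnmt1 lay at -1.08, and the sign turned for Ccl2 0.36, Cyp2b10 -0.96, Fn1 0.78, Mgp 2.30, Pdpn -0.41, Robo2 0.36 and Rtkn2 -0.96. Without cells that had 3 AT1 markers, which left 28 and 8 cells, list medians were selection markers 0.068, surfactant proteins 0.066, other AT2 genes 0.17, ion transport -0.027, AT1 -0.049, transitional 0.11, airway -0.65, MHC class II 0.051, MHC class I 0.41, complement 0.18, dissociation -0.18, unfolded protein response 0.37, niche signaling -0.45 and ligands and receptors 0.34, the counts past 2-fold were 7 higher and 46 lower, and the sign turned for 9930014A18Rik -1.47, Ccl2 0.11, Col4a4 -1.82, Flrt3 -0.30, Fn1 1.70, Gm20186 -0.30, Hbegf -1.21, Mgp 0.11, Mki67 1.70, Retnla 0.13, Robo2 2.70, Sgms2 -0.37 and Slit3 0.28. Without cells over 0.1% for the endothelial list, list medians were surfactant proteins -0.029, adhesion and keratins 0.067, AT1 -0.12, MHC class II 0.10, interferon gamma 0.87, inflammation 0.26, cell cycle -2.01, endothelial 0.29 and mesenchymal 0.33, the counts past 2-fold were 46 lower, and the sign turned for Ccl2 0.34, Col4a3 -0.39, Col4a4 -0.00501, Cyp2b10 -0.24, Fn1 1.19, Itgb6 -0.055, Mgp 2.25, Pdpn -0.70, Rtkn2 -1.85, Sod3 3.51 and Tagln 3.51. Without cells over 0.8% for the AT1 list, list medians were selection markers 0.068, surfactant proteins 0.020, AT1 -0.056 and interferon gamma 0.044, and the sign turned for Cyp2b10 -0.0036 and Rtkn2 -0.47. Without cells that had 3 fibroblast or muscle genes, list medians were selection markers -0.061, surfactant proteins -0.13, interferon gamma 0.84, dissociation 0.38, cell cycle -1.59, endothelial 0.18 and mesenchymal 0.40, the counts past 2-fold were 50 higher and 28 lower, and the sign turned for Ccl2 0.11, Eln 0.44, Fn1 1.44, Mgp 1.54, Sod3 0.38 and Tagln 0.53. With these last 3 exclusions together, list medians were surfactant proteins -0.028, AT1 -0.091, transitional 0.23, interferon gamma 0.90, cell cycle -1.97, endothelial 0.29 and mesenchymal 0.33, the counts past 2-fold were 44 lower, and the sign turned for Ccl2 0.34, Col4a3 -0.15, Col4a4 -0.043, Cyp2b10 -0.39, Fn1 1.19, Mgp 1.83, Rtkn2 -1.39, S100a6 -0.019, Sod3 1.19 and Tagln 3.19, of which Fn1 had 4 UMIs in each library, Sod3 1 in each and Tagln 1 and 4. Without the cell with the most UMIs of each library, list medians were surfactant proteins -0.030 and endothelial -0.74. For the mean CPM of single cells, list medians were interferon gamma -0.10 and endothelial -0.54, and the sign turned for Gm4841 -0.16. With cells thinned to 2000 UMIs, list medians were surfactant proteins -0.073, lipid synthesis 0.38, cholesterol 0.37, transitional -0.11, airway -0.15, MHC class II 0.026, MHC class I 0.050 and interferon gamma -0.32, the counts past 2-fold were 4 higher and 6 lower, and the sign turned for Ccl2 1.44, Cyp2b10 -1.37, Fn1 1.44, Gm4841 -0.73 and Plce1 -0.56. For genes with at least 20 UMIs, the list median was airway 0.11, and the counts past 2-fold were 178 higher and 608 lower. For genes with at least 300 UMIs, the list median was airway 0.33, and the counts past 2-fold were 7 higher and 21 lower.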

Other observations

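Some genes outside the naming rule stood out after their values were seen. The ribosomal protein gene Rpl29 had 2542 UMIs in the control and 236 in the Dnmt1iECKO AT2 cells (558 and 120 CPM), a log2 ratio of -2.22 (-2.42 to -2.02), and at least 10 UMIs in 104 of 141 and 8 of 52 cells. With every cell thinned to 2000 UMIs, 61.0% of control and 23.1% of Dnmt1iECKO AT2 cells had an Rpl29 UMI, against 97.9% and 90.4% before thinning. It was also lower in the Dnmt1iECKO endothelial cells (-1.32, -1.36 to -1.29) and T cells (-2.26, -2.31 to -2.21), and it has many pseudogene copies that can share its reads. The predicted gene Gm47283 lay the other way in AT2 cells (1.14, 0.91 to 1.38), endothelial cells (1.03, 0.98 to 1.07) and T cells (1.11, 1.03 to 1.19). The circadian repressor Cry2 had 34.0 and 69.6 CPM in AT2 cells, a log2 ratio of 1.03 (0.69 to 1.38), while in endothelial cells it had 10.0 and 10.2 CPM and in T cells 16.3 and 15.1 CPM. The adhesion gene Selp had 24 and 163 UMIs among AT2 cells, of which 22 and 155 lay in 1 cell of each library.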
